A study of Mus musculus with 3 samples.

Results

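Interferon-stimulated genes are the genes that cells switch on when interferon, a secreted alarm signal of virus infection, binds its receptor. The 38 genes described here were chosen by symbol, as a list of well-known mouse members of this programme. All 38 matched the mouse annotation, 37 as protein-coding genes among 21911 and Mx2 as a polymorphic pseudogene. They were measured by DNase-seq in natural killer cells, as primary cells of adult male B6CASTF1/J mice aged 2 months, which are hybrids between C57BL/6 and the CAST strain. There were 3 libraries of 1 group, called replicates 1, 2 and 3, with no treated or control group. The 3 libraries share a donor label and carry different biosample labels, and their spread may therefore be technical. No stimulus, sort or gate is named in the labels. With 1 group there was no test between conditions, and the values below are descriptions set beside those of other genes.

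DNase I cuts DNA that nucleosomes leave bare. Clusters of cuts are called as peaks, which mark accessible sites, and short protected stretches within them are called as footprints, which mark DNA covered by protein. Type I interferons act through the receptor chains IFNAR1 and IFNAR2, the kinases JAK1 and TYK2, and a complex of transcription factors that holds STAT2 and IRF9. This complex binds the interferon-stimulated response element (ISRE), a pair of GAAA repeats spaced by a pair of bases. Interferon gamma, which natural killer cells themselves secrete, acts through the gamma-activated site (GAS), and through IRF1, which binds the ISRE as well. Interferons are known to raise the killing capacity of natural killer cells.

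Replicates 1, 2 and 3 held 40484, 84564 and 81854 peaks and 101990, 239483 and 222990 footprints, and read depth is unknown from these files. Marker genes were checked by promoter peaks in all 3 libraries, which were found at 8 of 10 natural killer genes, 7 of 10 B cell genes, 6 of 10 dendritic cell genes (a list that holds the member Bst2), 3 of 10 T cell genes, 1 of 10 monocyte and macrophage genes and 0 of 10 neutrophil genes. Over all protein-coding genes other than the members that share was 52.4%, so the B cell and dendritic cell counts are not far from it. Cd4, Cd8a, Csf1r, C1qa, Clec9a and Xcr1 had no promoter peak in any library. From the same lists, Cd3d, Cd28, Lef1, Cd68, Zbtb46, Flt3, Bst2, Itgax, H2-Aa and Cd74 had one in all 3. The B cell list differed most between libraries, with a median promoter rank at percentile 34.5, 84.3 and 78.6 of its library over the genes with a peak in replicates 1, 2 and 3. Which cells the peaks of interferon-stimulated genes came from was not tested.

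The sequences below carry the pattern that the results turn on. The first set is the 200 bases before the annotated start of 4 members that had a promoter peak in all 3 libraries and an ISRE (GAAA, any 2 bases, GAAA, on either strand) in a footprint in at least 2. They are read 5′ to 3′ along the gene from the reference assembly GRCm38.p6 of RefSeq (mm10), which is a C57BL/6 sequence. Capitals mark ISRE matches, and overlapping matches run together.
Isg15, chr4:156200819-156201018, minus strand: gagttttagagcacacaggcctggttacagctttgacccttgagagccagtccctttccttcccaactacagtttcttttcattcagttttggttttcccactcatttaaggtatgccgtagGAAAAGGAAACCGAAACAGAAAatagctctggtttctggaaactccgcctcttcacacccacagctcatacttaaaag
Zbp1, chr2:173218924-173219123, minus strand: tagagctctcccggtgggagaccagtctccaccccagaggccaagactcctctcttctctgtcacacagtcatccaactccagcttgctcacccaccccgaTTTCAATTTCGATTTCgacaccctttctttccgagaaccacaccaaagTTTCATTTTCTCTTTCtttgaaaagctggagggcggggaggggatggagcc
Rsad2, chr12:26456453-26456652, minus strand: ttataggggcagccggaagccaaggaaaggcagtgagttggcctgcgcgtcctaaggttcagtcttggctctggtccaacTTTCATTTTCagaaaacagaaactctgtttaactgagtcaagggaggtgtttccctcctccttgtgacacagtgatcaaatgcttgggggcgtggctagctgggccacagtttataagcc
Igtp, chr11:58199356-58199555, plus strand: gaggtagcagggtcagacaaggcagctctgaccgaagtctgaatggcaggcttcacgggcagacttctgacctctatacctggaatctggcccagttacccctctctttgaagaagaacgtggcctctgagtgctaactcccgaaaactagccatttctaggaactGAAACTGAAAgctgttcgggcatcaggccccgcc

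The second set gives single ISREs of other members, with 10 bases on each side, read on the strand that shows the motif as GAAA repeats, so that the same element can be compared across genes. Those of Ifi27, Gbp2, Gbp3 and the one shared by Parp9 and Dtx3l lie in annotated exons with untranslated sequence, that of Irgm1 in an exon, and the other 4 lie upstream of a start.
Ifi27, chr12:103434210-103434239, plus strand: gagagctgggGAAATCGAAActtatttcag
Parp9 and Dtx3l, chr16:35938962-35938991, minus strand: ctggggaatcGAAACTGAAActttgcctct
Gbp2, chr3:142620594-142620623, minus strand: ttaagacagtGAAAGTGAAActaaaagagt
Gbp3, chr3:142560525-142560554, minus strand: aaaaggaactGAAATCGAAAccatgctcct
Irgm1, chr11:48871425-48871454, minus strand: tcaagaaataGAAACCGAAActgattctca
Rtp4, chr16:23609861-23609890, plus strand: gacagaccggGAAATGGAAActgaaagaac
Usp18, chr6:121245813-121245842, minus strand: agatccaaagGAAAGCGAAActcaggcacc
Ifit1, chr19:34640794-34640823, minus strand: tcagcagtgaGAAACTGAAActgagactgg
Oas3, chr5:120777715-120777744, minus strand: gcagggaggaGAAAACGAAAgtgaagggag

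Most interferon-stimulated genes had an open promoter in these cells without any stated stimulus, although most of their promoters are poor in CpG. A promoter was taken as 500 bp on each side of any annotated start site, and a gene counts as open if a peak touches its promoter. Of 38 members, 29 (76.3%) were open in all 3 libraries, against 52.4% of 21874 other protein-coding genes. By library, 29, 35 and 35 members were open in replicates 1, 2 and 3, against 52.8%, 60.1% and 59.2% of other genes. Since CpG-rich promoters are open in most cell types, each member was also set beside the 200 other genes nearest to it in promoter CpG ratio (observed over expected CpG), and on average 28.4% of those were open. A promoter footprint in all 3 libraries was found in 29 members too, against 49.8% of other genes and 25.6% of genes of like CpG ratio. The members' median CpG ratio was 0.334, against 0.627 in all other genes. Members had a median of 4 annotated start sites, other genes 3 and genes of like CpG ratio 2, so members had more windows in which to be open. With the reference start of each gene alone, 26 members (68.4%) were open, against 48.4% of other genes and 25% of genes of like CpG ratio. Mx1, Mx2, Oas3, Oasl2 and Parp14 were open in 2 libraries, Ifit3 and Oas2 were open in 1, and Oas1a and Ifi44 in none. The 29 open members rest on 28 promoter peaks, since Parp9 and Dtx3l, on opposite strands, share the same one.

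Members were open more often than other genes at CpG ratios below 0.5, and from 0.5 upwards the shares were closer. Among promoters with a CpG ratio below 0.25, 7 of 13 members (53.8%) were open in all 3 libraries, against 162 of 4900 other genes (3.31%), or 4.49% when sensory receptor genes were left out. These 7 members are Isg15, Isg20, Ifit1, Ifit3b, Xaf1, Zbp1 and Gbp2. Between 0.25 and 0.5, 12 of 14 members (85.7%) were open against 23.6% of other genes, and from 0.5 upwards 10 of 11 (90.9%) against 79.3%. In the CpG-rich class the member that was not open throughout was Parp14. The difference in that class rests on few genes, and Parp9 and Dtx3l, which are among its open members, share a peak. No chance test was made of these shares.

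**Figure D1:**
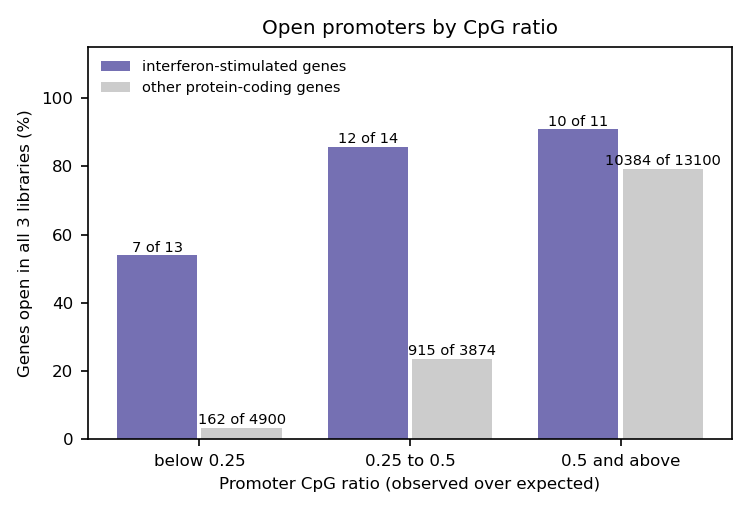
Bars give the percentage of genes with a promoter peak in all 3 libraries (y axis) in 3 ranges of promoter CpG ratio (x axis), for interferon-stimulated genes and for other protein-coding genes, with the gene counts above each bar. Members stand at 53.8%, 85.7% and 90.9%, other genes at 3.31%, 23.6% and 79.3%.

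Open was not the same as strong. The signal of the strongest promoter peak was ranked among all peaks of its library, since the scale between libraries is not known. Over the 29 open members the median of the mean percentile was 73.3, with a range of 36.1 (Dhx58) to 96.4 (Samhd1), against 89.4 over the 11461 other genes open in all 3 libraries. Only Samhd1, Sp100, Trim25 and Gbp3 stood above that median. Beside genes of like CpG ratio the difference depended on how those genes were summarised. The median of their open genes, taken for each member and then over members, was 70.5. Over all their open genes pooled, each counted once, it was 82.1. Both values cover the like genes of all 38 members, including the 9 members not open in all 3 libraries. For some members as few as 0.5% of like genes were open, so the first value rests in part on very few genes. Whether open members rank above or below open genes of like CpG ratio is therefore not settled. By library, the members' median stood at percentile 59.8, 78.6 and 79.6, and that of other open genes at 84.5, 92.3 and 91.8. The gap was widest in CpG-rich promoters, where open members had a median of 77.7 and other open genes 90.6, and narrow between 0.25 and 0.5, at 70.1 against 72.4. Below 0.25 it was 56.3 against 63.3. Open member promoters held a median of 3, 4 and 5 footprints in replicates 1, 2 and 3, those of other genes 5, 8 and 7, and those of genes of like CpG ratio 4, 6 and 6.

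**Figure D2:**
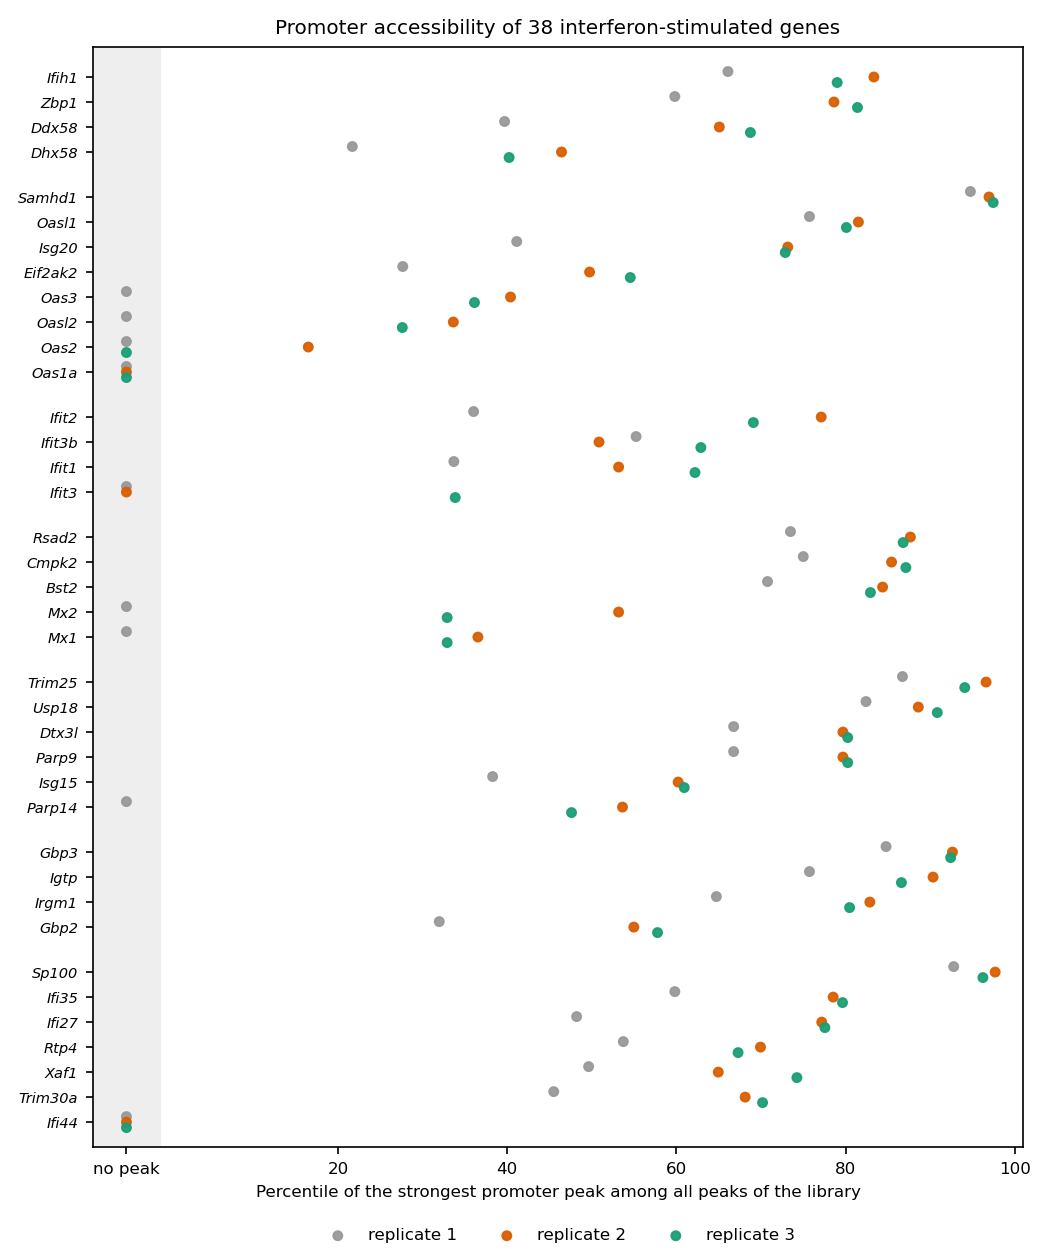
Each row is an interferon-stimulated gene, grouped by role from top to bottom (sensors, nucleic acid effectors, IFIT family, virus blockers, ISG15 and ubiquitin system, GTPases, others), and each point is 1 library, placed at the percentile of its strongest promoter peak (x axis). Points in the grey strip had no promoter peak. Samhd1, Sp100 and Trim25 lie furthest right, and points of replicate 1 lie to the left of the other libraries in most rows.

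The cytosolic sensors, which detect foreign RNA or DNA, were open in 4 of 4 cases. Ifih1, which encodes the long double-stranded RNA sensor MDA5, was highest, at percentile 66.1, 83.3 and 79.0 in replicates 1, 2 and 3 (mean 76.1 ± 8.97, SD, n = 3). Zbp1, a sensor of left-handed nucleic acid that triggers cell death, followed at 59.8, 78.6 and 81.4. Ddx58, which encodes RIG-I, stood lower at 39.7, 65.1 and 68.7. Dhx58, which encodes LGP2, a regulator of the other RNA sensors, was lowest of all open members at 21.7, 46.4 and 40.2 (mean 36.1 ± 12.9, SD, n = 3). In replicates 1 and 3 its strongest peak lay at another annotated start, 1056 and 1079 bp downstream of the main one, and in replicate 1 no peak lay at the main start.

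Among genes whose products destroy, bind or starve viral nucleic acid, 4 of 8 were open in all libraries, and this group held the widest spread. Samhd1, which hydrolyses nucleotides that viruses need, had signals of 6.65, 13.9 and 15.8 and percentiles of 94.7, 96.9 and 97.4 (mean 96.4 ± 1.43, SD, n = 3). Its CpG ratio of 0.740 was the highest of all members, and 84.0% of genes of like ratio were open. Oasl1, an OAS-like protein, stood at 75.7, 81.5 and 80.1, and the exonuclease gene Isg20 at 41.1, 73.2 and 72.9. Eif2ak2, which encodes the kinase PKR that halts translation, was the lowest open gene of the group at 27.7, 49.7 and 54.5 (mean 44.0 ± 14.3, SD, n = 3).

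The genes of 2′-5′ oligoadenylate synthetases, which activate RNase L, were mostly closed or weak. Oas3 had no promoter peak in replicate 1 and stood at percentile 40.4 and 36.1 in replicates 2 and 3, Oasl2 likewise at 33.6 and 27.6, and Oas2 had a peak in replicate 2 alone, at 16.5. Oas1a had no peak and no base with an FDR of 0.05 or less within its promoter in any library. A region inside Oas3, 1865 bp downstream of its start (chr5:120775612-120775980), ranked above the start in each library, at 34.5, 78.6 and 79.8. Oas1a lies in a cluster of similar gene copies, and whether reads there map uniquely was not checked, so its closed state is uncertain.

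In the IFIT family, which encodes proteins that bind viral RNA ends, 3 of 4 genes were open. Ifit2 was highest at percentile 36.0, 77.1 and 69.1 (mean 60.7 ± 21.8, SD, n = 3), the widest spread between libraries among the open members. Ifit3b stood at 55.2, 50.9 and 62.9, and Ifit1 was lowest at 33.7, 53.2 and 62.2 (mean 49.7 ± 14.6, SD, n = 3). The Ifit1 peak also lies within 500 bp of a start of Ifit1bl2. Only 0.5% of genes with a CpG ratio like that of Ifit3b were open, and 1.5% of those like Ifit1. Ifit3, a near copy of Ifit3b, had a peak in replicate 3 alone, at 33.9, whose middle lay at -493 bp from the start. The values of this pair are uncertain, because how reads shared by near-identical copies were counted is not stated. A site upstream of Ifit2, at -2539 bp from its start (chr19:34548081-34548260), ranked above all 4 promoters of the family in each library, at 80.4, 88.9 and 89.3.

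Of 5 genes that block virus entry, replication or budding, 3 were open. Rsad2, which encodes viperin, had signals of 2.12, 4.57 and 4.71 and percentiles of 73.5, 87.6 and 86.8 (mean 82.6 ± 7.94, SD, n = 3). Its neighbour Cmpk2, which encodes a mitochondrial nucleotide kinase, stood at 74.99, 85.4 and 87.1 from a separate peak. Bst2, which encodes tetherin, a protein that holds budding virus on the cell, was the lowest open gene here at 70.8, 84.4 and 82.9 (mean 79.4 ± 7.47, SD, n = 3). Thus all 3 open genes of this group lay above the members' median. The myxovirus resistance genes Mx1 and Mx2 had no promoter peak in replicate 1. Mx1 stood at 36.5 and 32.9 in replicates 2 and 3, and Mx2 at 53.2 and 32.9. The Mx2 values come from different peaks, with middles at -62 bp from the main start in replicate 2 and -912 bp in replicate 3. Within 500 bp of the main start Mx2 stood at 22.8 in replicate 3. Common laboratory strains such as C57BL/6 carry defective Mx genes, while the CAST alleles of these mice were not examined.

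In the ISG15 and ubiquitin system, 5 of 6 genes were open. Trim25, a ubiquitin ligase that activates RIG-I, was highest with signals of 4.01, 13.2 and 9.82 and percentiles of 86.7, 96.6 and 94.1 (mean 92.5 ± 5.13, SD, n = 3). Usp18, which encodes the enzyme that removes ISG15 from proteins and also brakes IFNAR signalling, stood at 82.4, 88.6 and 90.8. Isg15, the ubiquitin-like modifier itself, was lowest at 38.3, 60.2 and 60.9 (mean 53.1 ± 12.9, SD, n = 3). The modifier's promoter thus ranked below that of its remover in each of the 3 libraries. Parp9 and Dtx3l, which encode partners in one ADP-ribosylation and ubiquitin ligase complex, share a peak at 66.8, 79.7 and 80.2. Parp14, a neighbouring member of the PARP family, had no promoter peak in replicate 1 and stood at 53.6 and 47.6 in the others, although 66.5% of genes of like CpG ratio were open.

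The interferon-inducible GTPases, which attack the membranes around intracellular microbes and are known for their response to interferon gamma, were open in 4 of 4 cases. Gbp3 was highest with signals of 3.61, 7.67 and 8.05 and percentiles of 84.8, 92.6 and 92.4 (mean 89.9 ± 4.47, SD, n = 3). The middle of its strongest peak lay 609 to 759 bp downstream of the main start. Within 500 bp of the main start itself the percentiles were 84.8, 59.6 and 88.2. Igtp stood at 75.7, 90.3 and 86.6, and Irgm1 at 64.7, 82.9 and 80.5. The Igtp peak also lies within 500 bp of a start of Irgm2. Gbp2 was lowest at 32.0, 55.0 and 57.8 (mean 48.2 ± 14.2, SD, n = 3), with 0.5% of genes of like CpG ratio open.

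Of the 7 remaining members 6 were open. Sp100, a component of nuclear bodies, was highest with signals of 5.77, 15.7 and 13.1 and percentiles of 92.8, 97.7 and 96.2 (mean 95.6 ± 2.52, SD, n = 3). That peak lies at a start site inside the gene, 53691 to 53701 bp from the main start. At the main start of Sp100 there was no peak in replicate 1 and percentiles of 63.9 and 56.9 in replicates 2 and 3. Ifi35 stood at 59.8, 78.5 and 79.6, Ifi27 at 48.2, 77.2 and 77.5, and the pro-apoptotic factor gene Xaf1 at 49.6, 64.9 and 74.2. Rtp4 stood at 53.7, 69.9 and 67.3, also from an internal start, 89580 to 89650 bp from the main one, where no library had a peak. The main start of Rtp4 was set by an annotation rule alone, in a gene model of 93932 bp, and start use was not measured. Trim30a was lowest at 45.5, 68.1 and 70.2 (mean 61.3 ± 13.7, SD, n = 3). Ifi44 had no peak, and 0, 0 and 10 bases of its promoter reached an FDR of 0.05.

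All 9 members that were not open throughout lacked a promoter peak in replicate 1, the library with the fewest peaks. All 9 had 0 bases with an FDR of 0.05 or less in their promoters in that library. Other protein-coding genes showed the same pattern, with 11542 open in replicate 1 and 11461 in all 3 libraries. Of the 29 open members, 28 had their lowest percentile in replicate 1, the exception being Ifit3b. The median of other open genes was also lowest there, at 84.5 against 92.3 and 91.8 in replicates 2 and 3. Replicates 2 and 3 did not differ in a common direction at the members. In log2 signal centred on all genes open in all 3 libraries, members differed between replicates 2 and 3 by a median of -0.05, with 15 of 34 higher in replicate 2. Over the marker genes, the B cell list differed by 1.07, with 8 of 9 higher in replicate 2, and the natural killer list by -0.98, with 0 of 10.

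Interferon response elements stood at the centre of about as many member peaks as not. In the 150 bp around the middle of the strongest promoter peak, the ISRE core was found in 14 of 29, 18 of 35 and 20 of 35 members with a peak in replicates 1, 2 and 3, a mean of 52.3% ± 4.49 (SD, n = 3). The same window held it in 1.16% ± 0.0237 of other genes with a promoter peak, and in 5.69% ± 2.33 of those of like CpG ratio, few of which are open at the CpG-poor end. In at least 2 libraries it was found in 17 members (Isg15, Isg20, Ifit1, Oas3, Oasl2, Rsad2, Usp18, Ifi27, Eif2ak2, Zbp1, Parp9, Dtx3l, Trim30a, Gbp2, Irgm1, Igtp and Rtp4), against 1.1% of other genes with a peak in at least 2. By sequence alone, in the 300 bp from 250 before to 50 after the reference start, 21 of 38 members held it (55.3%), against 3.53% of other genes. Oas1a, Oas2 and Ifit3 are among those 21. A match is a description of the letters, not proof of a bound site.

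Other motifs separated the members less. The GAS core TTCNNNGAA lay in 11.1% ± 2.92 (SD, n = 3) of member peaks 2.98% ± 0.0495 of other promoter peaks and 4.64% ± 0.797 of those of like CpG ratio. The composite of ETS and IRF factors (GGAA, any 2 bases, GAAA) lay in 16.2% ± 1.68, 1.08% ± 0.0232 and 2.76% ± 1.03. It shares its second repeat with the ISRE pattern, so matches of both can overlap where elements are repeated. The GC box GGGCGG was less frequent in members, at 32.2% ± 1.77 against 53.7% ± 1.18, and close to genes of like CpG ratio at 29.3% ± 1.20. The ETS motif CCGGAAG was found in 1 of 29, 0 of 35 and 0 of 35 member peaks, against 14.3% ± 0.188 of other promoter peaks and 6.17% ± 0.0671 of those of like CpG ratio. All motifs were searched on both strands.

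**Figure D3:**
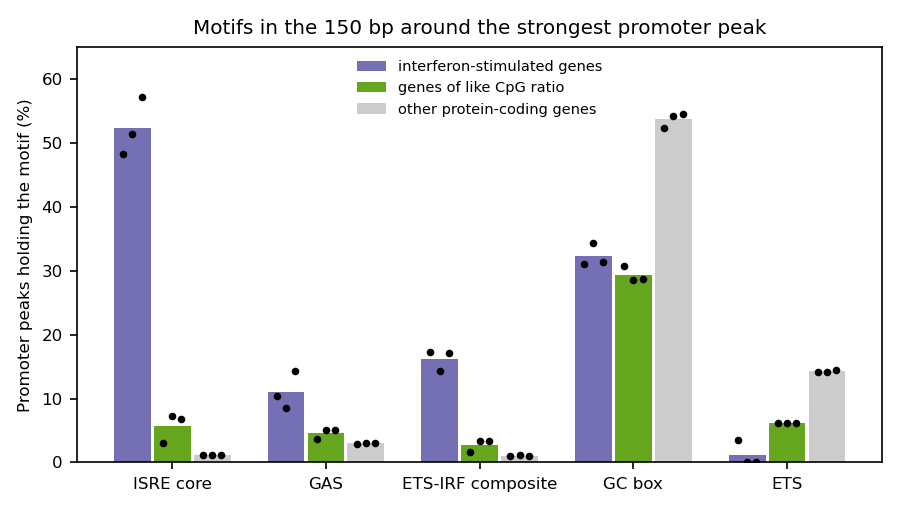
Bars give the mean over 3 libraries of the percentage of promoter peaks that hold each motif within 150 bp around the peak middle (y axis), for interferon-stimulated genes, genes of like CpG ratio and all other protein-coding genes, and black points are single libraries. The ISRE core stands at 52.3% in members and 1.16% in other genes, while the GC box is lower in members than in other genes.

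Footprints covered part of these elements. In 11 of 38 members an ISRE lay with at least 50% of its length in a promoter footprint in at least 2 libraries, against 0.649% of other genes and 0.421% of genes of like CpG ratio. They are Isg15, Rsad2, Ifi27, Zbp1, Parp9, Dtx3l, Gbp2, Gbp3, Irgm1, Igtp and Rtp4, whose sequences stand above. In Ifi27, Zbp1, Gbp3, Rtp4 and the promoter shared by Parp9 and Dtx3l the element was covered in all 3 libraries. The Gbp3 element did not lie inside a called peak in replicate 2, although a footprint covered it there. Oas3, Usp18, Ifit1, Isg20, Oasl2, Mx2, Ifih1, Dhx58 and Trim30a had a covered element in 1 library. Within promoter peaks, 11 of 34, 19 of 39 and 17 of 38 ISREs of members lay in footprints in replicates 1, 2 and 3 (32.4%, 48.7% and 44.7%), against 17.8%, 29.5% and 30.2% of ISREs in promoter peaks of other genes. Overlapping matches were counted separately, so genes with repeated elements weigh more. In replicate 1, Zbp1 gave 4 and Isg15 2 of the 11, and Rtp4 gave 3 in each of replicates 2 and 3.

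Most ISREs of members, covered or not, lay close to start sites. Of 59 distinct ISREs in member promoters, 16 were covered in at least 2 libraries, and all 16 lay between -116 and 129 bp from the nearest start (negative is upstream), 13 of them upstream. Of the other 43, 37 also lay within 200 bp of a start. Of the 3 overlapping matches of Isg15 printed above, those at -62 and -68 bp were covered in replicates 1 and 2 but not 3, and that at -74 bp in none. In Zbp1 there are 4 matches from -41 to -95 bp, and the one nearest to the start was covered in all 3 libraries. In Rsad2 the covered element lies at -116 bp, and in Igtp at -29 bp, each in replicates 2 and 3. The Ifi27 element lies 13 bp downstream of the start, inside the transcribed sequence. The covered Rtp4 elements, at -69, -43 and -37 bp, belong to the internal start that carried the peak.

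**Figure D4:**
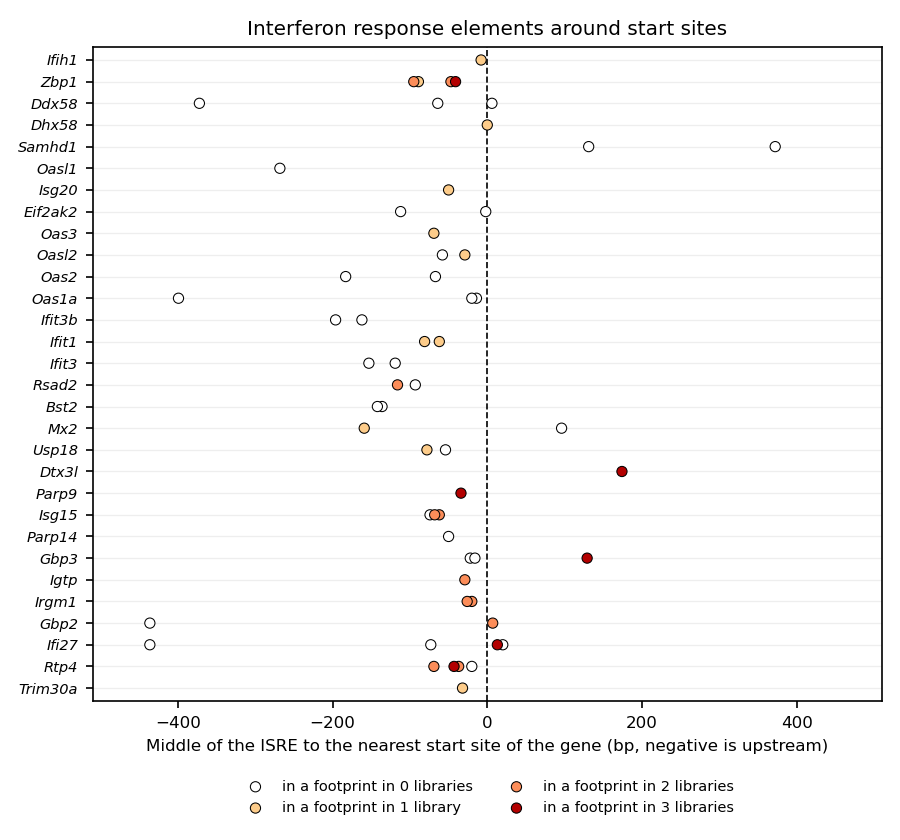
Each point is an ISRE core match in a promoter of the gene on its row, placed by the distance of its middle from the nearest annotated start (x axis, in bp), and coloured by the number of libraries in which a footprint covers at least 50% of it. Darker points, covered in 2 or 3 libraries, lie between -116 and 129 bp, except for a repeated point. The element of Parp9 is drawn again at 174 bp on the row of Dtx3l, a neighbour on the opposite strand.

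Members without an exact ISRE match in the promoter windows were open about as often as those with one, 6 of 8 (75%) against 23 of 30 (76.7%). The 6 are Ifit2, Ifi35, Xaf1, Trim25, Sp100 and Cmpk2, and their median percentile was 77.6. That of the 11 open members with a covered ISRE was 75.6, and that of the 12 open members with an ISRE not so covered was 61.8, with ranges that overlap (60.7 to 95.6, 48.2 to 89.9 and 36.1 to 96.4). Below a CpG ratio of 0.5, 15 of 21 members with an ISRE in the promoter windows were open in all 3 libraries (71.4%), and 19 of 27 members with or without one (70.4%). Among other genes of that range, 287 of 1879 with an ISRE were open in all 3 (15.3%), and 1077 of 8774 with or without one (12.3%). Elements that depart from the exact pattern are not counted in any of these sets.

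Around the genes, members had a median of 4 accessible regions (merged peaks found in at least 2 libraries) in a window of the gene plus 10 kb at either end, against 3 for all other genes. On average 71.7% of genes of like CpG ratio had fewer than the member they were set beside. Per 10 kb of window the medians were 0.951 and 0.480. The loci held 146 distinct regions, of which 47 lay at the members' own promoters, 16 at promoters of other genes and 83 away from any start of a protein-coding gene. Oas1a and Ifi44 had no region at all, as did 24.8% of other genes.

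Irgm1 had the most, with 11 regions, followed by Samhd1 with 8 and by Trim25, Ddx58 and Dhx58 with 7 each. At Irgm1, 9 of the 11 lay in the flanks, 8 of them downstream of the gene. The strongest, 14883 bp downstream of the start (chr11:48856221-48856760), stood at percentile 95.4, 97.1 and 97.8 with signals of 6.97, 14.2 and 16.7, and ranked above the Irgm1 promoter in each library. Its neighbour at chr11:48856821-48857120 stood at 88.0, 96.4 and 95.6. A site upstream of Irgm1, at -3277 bp (chr11:48874541-48874760), at 47.2, 80.7 and 77.0, held an ISRE in all 3 libraries, in a footprint in replicates 1 and 2.

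**Figure D5:**
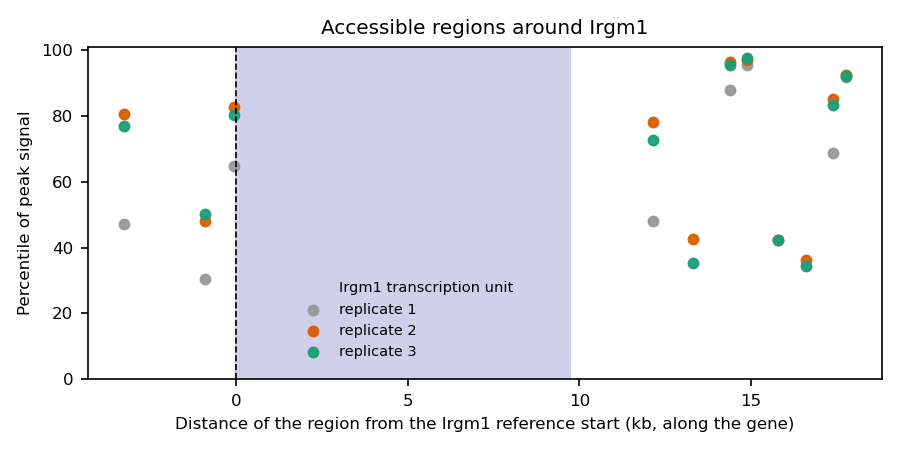
Each point is an accessible region found in at least 2 libraries in a window of Irgm1 plus 10 kb at either end, placed by its distance from the reference start in kb along the gene (x axis) and the percentile of its peak signal (y axis), with 1 colour per library. The shaded band is the transcription unit. The highest points lie beyond the end of the gene, from 14403 to 14883 bp.

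Distal sites were also prominent at some other members. At Trim25 6 of 7 regions lay in the flanks, and those beyond the gene's end differed between libraries: the region at chr11:89024141-89024660 stood at percentile 47.7, 90.4 and 87.0. Between Oasl2 and Oasl1, a site at -1269 bp from the start of Oasl1 (chr5:114921781-114922160) stood at 62.3, 91.5 and 88.8, above both promoters in replicates 2 and 3. Dhx58 had 3 regions within the gene, of which that at chr11:100695021-100695220 stood at 66.3, 82.5 and 78.4, above its promoter in every library. Of the peaks in member loci away from starts, 1 of 43, 8 of 108 and 8 of 102 held an ISRE in the 150 bp around their middle (2.33%, 7.41% and 7.84%), against 2.06%, 2.16% and 2.27% of such peaks elsewhere.

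Genes that make, receive or pass on the interferon signal were open about as often as its targets, and ranked higher where open. Of 44 such pathway genes outside the member list, 34 were open in all 3 libraries and 6 in none, with a median percentile of the open ones of 90.8 against 73.3 in members. Over all protein-coding genes other than the members, 52.4% were open in all 3, and the median of the open ones was 89.4. The open pathway genes thus ranked close to other open genes. Of the ligand genes, 1 of 7 was open throughout, Ifng, at 64.7, 68.4 and 80.2. Ifna4 had a weak peak in replicates 2 and 3, at 11.4 and 11.4, and Ifnb1, Ifna1, Ifna2, Ifnk and Ifne had none. Of the receptor genes 5 of 6 were open, led by Ifngr1 at 99.6 ± 0.284 (SD, n = 3) and Ifnar1 at 99.3 ± 0.815.

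Within the cell, the kinase, STAT, IRF and brake genes were all open, and the sensor and adaptor genes in part. All 6 kinase and STAT genes were open, led by Stat3 at percentile 99.4 ± 0.455 and Jak1 at 98.8 ± 0.236 (SD, n = 3). All 8 IRF genes were open, led by Irf3 at 97.8 ± 0.625 and Irf1 at 97.3 ± 2.15. Stat2 stood at 92.1 ± 3.03 and Irf9 at 91.8 ± 5.08. Of 11 sensor and adaptor genes 8 were open, led by Mavs, the RIG-I adaptor, at 93.5 ± 0.440 and the kinase gene Tbk1 at 91.0 ± 3.48, while Tlr3 and Tlr9 had a promoter peak in 2 libraries and Tlr7 in none. All 6 genes of brakes on the pathway were open, led by Pias1 at 97.8 ± 1.02 and Ptpn2 at 96.3 ± 0.759. These ranks are not matched on CpG ratio.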

How the data were processed

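DNase-seq of natural killer cells was deposited as files per library, called from that library's alignments on mm10, per the deposited descriptions. Aligner and callers: not given in the sources used here. The authors' peak lists give a signal whose scale is not stated, so it was ranked within each library (ties at their middle rank). The authors' FDR files give a q-value per interval, up to 0.05. The footprint lists deposited by the authors hold a constant as their other value, and only positions were used. Of 2 peak lists per library the one with more lines was used.

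Starts were those of all transcripts in GENCODE M21. The reference or main start is the most upstream start of principal transcripts. CpG ratios were taken over 1001 bp, and the highest over a gene's starts was used. Python 3.11.15 with pandas 2.3.3 computed all values, and the functions were tested on simulated data. No base of any peak lay beyond the reference ends.

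Members, gene lists and role groups were chosen with earlier results of these data known. The CpG ranges and the alternative that uses the reference start alone were chosen after the values were seen. The named genes are, per role, the highest and lowest open member, those open in 1 or 2 libraries, those with the most regions, those with a covered ISRE, and, per pathway list, the 2 highest and those without a peak. Others, and single distal regions, were named after their values were seen. Alternatives were other promoter widths, starts, overlap rules, motif forms, flanks, comparison genes, the stricter peak list and leaving out each replicate. Values of 1 pathway gene are not reported here.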

Additional observations from a re-analysis of the deposited data

How the results depend on the processing

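Of 64 recalculations of 7 results, 54 stayed within 1.5 times the reported count or within 1 SD over replicates. The number of members open in all libraries used ranged from 25 (the stricter peak list) to 34, and the share of genes of like CpG ratio from 24.4% to 34.7%, so members stayed above it throughout. With the reference start alone, 26 of 38 members (68.4%) were open, against 25% of genes of like CpG ratio. Leaving out each replicate in turn gave 29 to 34 open members, a median percentile of 69.2 to 75.2, 28.5% to 34.7% of genes of like CpG ratio, and 12 to 16 members with an ISRE around the peak middle. It gave a median of 2 to 4 regions per gene, with 2 without replicate 2 or without replicate 3, and 6 to 10 members with a covered ISRE, with 6 without replicate 2 and 7 without replicate 3. The median of 4 regions became 2 with no flank, 9.5 with a flank of 50 kb and 2 for regions found in all 3 replicates. The 11 members with a covered ISRE became 6 with a longer form that ends in CT and 5 when the whole motif had to lie in the footprint. These settings count fewer or more regions, sites or libraries by construction. Read depth is unknown, so a promoter without a peak is one not called at the depth of that library. No paired analysis was possible because there is 1 group.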
